A study of Mus musculus with 6 samples.

Results

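Solute carriers are membrane proteins that move small molecules such as amino acids, sugars, metals, ions, nucleosides and mitochondrial metabolites across the plasma membrane and the membranes of organelles. They work as exchangers, cotransporters or facilitators, many of them driven by sodium or proton gradients, and they are named by family and member number. In macrophages they feed amino acid metabolism, return haem, peptides and nucleosides from digested cargo to the cytosol through the lysosomal membrane, and exchange nucleotides and metabolites with the mitochondrial matrix.

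The genes described here were all those whose mouse symbol begins with Slc, a number, the letter a and a second number, with a mean of at least 1 FPKM over 6 libraries. FPKM is a level in fragments scaled to transcript length and to depth. Of 275 such symbols listed in at least 1 library, among 16871 genes in all, 152 were taken, 115 lay under the minimum and 8 were left out by name (Slc13a3, Slc7a11, Slc40a1, Slc11a1, Slc11a2, Slc25a20, Slc2a1 and Slc16a3). The symbol pattern takes 148 carriers and 4 genes that are only named after one: Slc9a3r1, an adaptor protein, Slc4a1ap, Slc7a6os and Slc36a1os. It takes the a members of the nucleotide sugar carrier family Slc35 and none of its other subfamilies. The genes were thus chosen by their mean FPKM over both genotypes, and their levels are given as a description. Just inside the minimum lay Slc7a14 (mean 1.003 FPKM) and Slc22a18 (1.16 FPKM), and just outside it Slc18a1 (0.988 FPKM) and Slc29a2 (0.943 FPKM).

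The cells were bone marrow-derived macrophages, grown for 7 days from the marrow of C57BL/6 mice aged 8 weeks before exposure to oxidised low-density lipoprotein (oxLDL). The control group, LKO, held 3 libraries from LDL receptor knockout cells. The other group, DKO, held 3 libraries from cells that lacked, besides the LDL receptor, ALDH2, an aldehyde dehydrogenase of mitochondria. Both groups thus carry the LDL receptor knockout and the oxLDL treatment, and no untreated or wild-type cells were compared. Separate animals behind the libraries are not stated in the labels. The p-values therefore reflect only the variation among these libraries, which may be technical.

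Libraries held between 10760625 and 10987584 expected counts. Aldh2 stood between 236 and 249 FPKM in LKO and between 7.00 and 7.34 FPKM in DKO. The macrophage markers Csf1r, Adgre1, Cd68 and Lyz2 were expressed in every library. The summed level of 10 macrophage markers was 9505 to 10243 FPKM in LKO and 10775 to 11998 FPKM in DKO, with 6 members higher and Adgre1 lower in DKO. Most of the macrophage sum was 1 gene, with a mean of 6861 FPKM. For these markers, higher and lower mean an edgeR adjusted p under 0.05. Over all genes tested, 7.42% were higher and 6.88% lower in DKO. The summed level of 14 neutrophil markers was 628 to 685 FPKM in LKO and 424 to 463 FPKM in DKO, with 8 of 13 tested members lower. B cell markers summed to 103 to 115 FPKM in LKO and 78.7 to 86.5 FPKM in DKO (5 of 5 tested lower), and 10 stromal markers to 41.01 to 47.1 FPKM and 68.1 to 92.8 FPKM (6 of 8 tested higher). Most of the B cell sum was 1 gene, with a mean of 86.8 FPKM, and the median B cell marker stood at 1.03 FPKM. T cell markers stood between 11.7 and 13.3 FPKM, mostly Cd4, and erythroid markers between 1.33 and 1.89 FPKM, with Cd3e, Cd3g, Hbb-b1 and Klf1 not listed in some libraries and taken there as 0. Osteoclast markers summed to 215 to 228 FPKM in LKO and 183 to 199 FPKM in DKO (2 of 3 tested higher, 1 lower), and most of that sum was 1 gene with a mean of 138 FPKM. The part of these marker differences in the changes of solute carrier genes was not tested, and in bulk RNA fewer cells of a type and less RNA per cell cannot be told apart.

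Solute carrier genes took 1.02% to 1.04% of the counts of an LKO library and 1.04% to 1.05% of a DKO library. Their summed level was 3396 to 3437 FPKM in LKO and 3405 to 3436 FPKM in DKO, so the summed levels of the groups overlapped. Single genes ranged from 1.003 to 271 FPKM with a median of 8.56 FPKM, and 8 of the 152 had a mean of at least 100 FPKM. The highest were the mitochondrial ADP/ATP carrier Slc25a5 (271 FPKM), the taurine carrier Slc6a6 (174 FPKM), the lysosomal peptide and histidine carrier Slc15a3 (169 FPKM), the mitochondrial phosphate carrier Slc25a3 (158 FPKM) and the haem carrier Slc48a1 (143 FPKM). The 34 mitochondrial carriers together held 1176 to 1195 FPKM in an LKO library, the 22 metal and haem carriers 599 to 604 FPKM and the 20 amino acid carriers 525 to 549 FPKM. The 12 sugar and polyol carriers together held 137 to 144 FPKM, with the glucose carrier Slc2a1 left out by name.

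**Figure D1:**
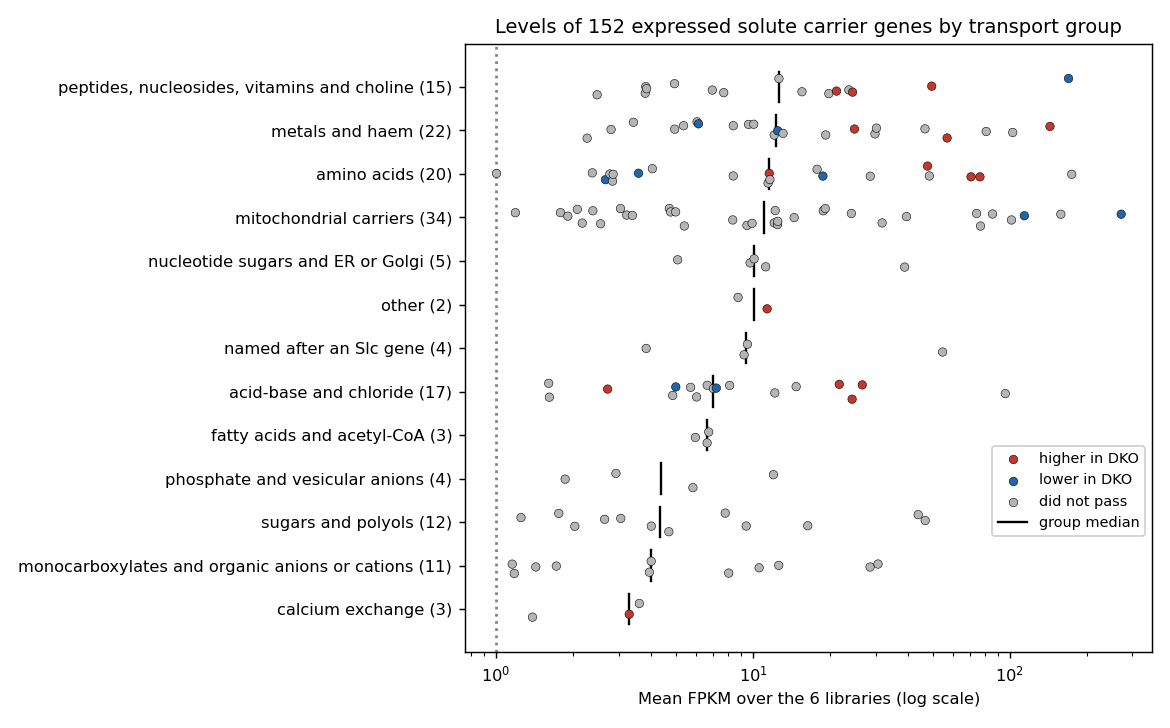
Mean FPKM over the 6 libraries (log axis) of the 152 solute carrier genes, 1 point per gene, in rows by transport group with the number of genes; the vertical bar is the group median and the dotted line the minimum of 1 FPKM. Red points were higher and blue points lower in DKO, and 2 of the genes of high level, Slc25a5 at 271 FPKM and Slc15a3 at 169 FPKM, were among those lower.

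The comparison asked how solute carrier expression under oxLDL differed between LDL receptor knockout macrophages with and without ALDH2. All 152 passed the count filter and were tested. In DKO, 16 were higher and 10 lower (edgeR adjusted p under 0.05), which is 17.1% of them, and 126 did not pass. Over all 11809 genes tested 14.3% passed (7.42% higher, 6.88% lower), and 14.9% of the 10519 with a mean of at least 1 FPKM (7.78% higher, 7.15% lower), so the share of solute carrier genes lay near the background. The count of higher genes fell to 9 without DKO replicate 3, and that of lower genes to 6 without LKO replicate 3. The FPKM ranges of the groups did not overlap for 46 solute carrier genes (30.3%), against a background of 29.6%.

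Changes were small. Every fitted change was less than 1.5-fold, and 144 of the 152 (94.7%) were less than 1.25-fold. Small changes were also usual among all tested genes with a mean of at least 1 FPKM. Of those, 96.7% changed less than 1.5-fold and 89.4% less than 1.25-fold. The median log2 fold change was 0.02, against 0.00 over all genes tested. Calls were more frequent at high levels: 14 of the 38 genes of highest mean FPKM passed (36.8%), against 20.5% of all genes tested at that range of levels. Of the other genes, in sets of 38 from the lowest level upward, 4, 3 and 5 passed (10.5%, 7.89% and 13.2%), against 10.4%, 10.5% and 12.8% of all genes tested at those levels.

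**Figure D2:**
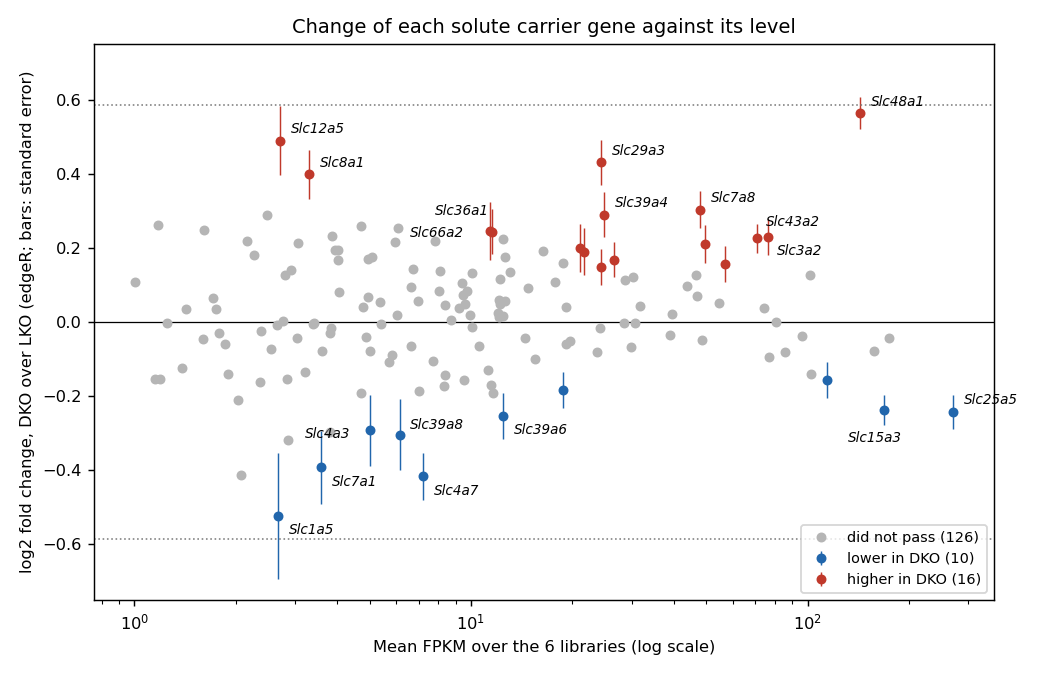
Fitted log2 fold change of each solute carrier gene (DKO over LKO, edgeR) against its mean FPKM (log axis); bars on called genes are standard errors and dotted lines mark 1.5-fold. All 152 genes lie between the dotted lines, with Slc48a1 highest at 0.56 and Slc1a5 lowest at −0.52.

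The promoters were searched for the E-box CACGTG, to which the lysosomal regulators TFEB and TFE3 and other factors can bind, because lysosomal carriers were among the genes that were higher. RefSeq's table for GRCm38.p6 held a promoter for 113 of the 152 genes. Within the 250 bases before a gene start, CACGTG, which reads the same on both strands, occurred for 23 of them (20.4%), and for 950 of 9473 tested genes with a promoter (10.03%). It occurred for 5 of 12 genes that were higher, 1 of 6 that were lower and 17 of 95 that did not pass. Differences between these shares were not tested, and sites of genes that were lower or did not pass are not shown. The 5 sites of the higher genes are shown with 20 bases on each side, read 5′ to 3′ on the gene's strand with the E-box in capitals.
Slc36a1 (chr11:55204289-55204334, plus strand): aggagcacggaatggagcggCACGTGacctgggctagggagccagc
Slc29a1 (chr17:45595296-45595341, minus strand): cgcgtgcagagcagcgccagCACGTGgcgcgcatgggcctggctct
Slc12a7 (chr13:73763639-73763684, plus strand): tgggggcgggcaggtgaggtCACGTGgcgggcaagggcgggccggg
Slc12a9 (chr5:137333663-137333708, minus strand): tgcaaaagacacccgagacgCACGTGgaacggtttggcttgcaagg
Slc12a5 (chr2:164967932-164967977, plus strand): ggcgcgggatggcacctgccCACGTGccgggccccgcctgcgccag

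The sites lay 25, 69, 32, 100 and 30 bases before the start in the same order. Of the genes shown, 3 belong to the Slc12 family. Slc48a1 and Slc15a3 had no promoter in the table, and 7 of the 12 higher genes with a promoter lacked these letters: Slc29a3, Slc46a3, Slc3a2, Slc43a2, Slc7a8, Slc39a1 and Slc8a1. Of the lysosomal carriers that were higher and had a promoter in the table, Slc36a1 had the E-box and Slc29a3 and Slc46a3 did not. The antioxidant response element core TGACNNNGC, searched on both strands and free to overlap the E-box, occurred for 24 of 113 genes (21.2%) against 14.02% of tested genes, in 3 of 12 that were higher and 4 of 6 that were lower. Differences between these shares were not tested either. The matches of both motifs describe letters in a window of 1 build, and which starts the cells used was not examined.

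Metal and haem carriers held the largest change. Slc48a1 (NCBI gene 67739), which carries haem out of the phagolysosome after red cells are digested, stood at 113, 120 and 115 FPKM in the LKO libraries and at 170, 169 and 172 FPKM in the DKO libraries. All DKO libraries lay above all LKO libraries, far beyond the spread within a group, and the means were 116 ± 3.34 and 170 ± 1.61 FPKM (SD, n = 3 each). The difference was 0.56 on the log2 scale (SE 0.04, 1.48-fold, adjusted p by edgeR 3.93e-09), and the adjusted p stayed at or below 0.000722 in all 14 alternative settings. The summed level of the group was 599 to 604 FPKM in LKO and 657 to 662 FPKM in DKO, and most of that difference was Slc48a1.

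Zinc importers of the Slc39 (ZIP) family went in both directions. Slc39a4 (ZIP4) was higher, at 22.2, 23.6 and 21.5 FPKM in LKO and 27, 26.3 and 28.4 FPKM in DKO (log2 fold change 0.29, SE 0.06, adjusted p by edgeR 0.00215). Slc39a6 (ZIP6) was lower, at 13.3, 14.3 and 13.2 FPKM in LKO and 11.3, 11.4 and 11.4 FPKM in DKO (log2 fold change −0.25, SE 0.06, adjusted p by edgeR 0.00598). Neither gene's groups overlapped, and both calls held in all 14 alternatives. Slc39a8 (ZIP8), a carrier of zinc and manganese, fell from 6.97, 6.98 and 6.41 FPKM to 5.90, 4.56 and 5.98 FPKM (log2 fold change −0.30, SE 0.10, adjusted p by edgeR 0.0392), and Slc39a1 (ZIP1) rose from 54.1 ± 1.79 to 59.8 ± 0.459 FPKM (adjusted p by edgeR 0.0323). Both of these calls were lost without some single libraries. With 22.7% called, against 14.3% of all genes tested, the remaining 17 of 22 metal and haem carriers did not pass. Among them the copper carriers Slc31a2 (108 ± 6.20 FPKM in LKO, 97.2 ± 0.958 in DKO, adjusted p by edgeR 0.0549) and Slc31a1 (29.1 ± 0.189 and 31.4 ± 1.58, adjusted p by edgeR 0.137) had opposite signs. All 5 zinc exporters of the Slc30 family that were taken differed by less than 1.1-fold.

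Amino acid carriers changed in 7 of 20 cases, 4 higher and 3 lower, which is 35% against 14.3% of all genes tested. Of genes tested at the level of the 38 highest genes, 20.5% passed. That level began at 21.7 FPKM, above the median of the 20 amino acid carriers (11.5 FPKM). The difference between these shares was not tested. The higher genes were carriers of large neutral amino acids or their partner, and a lysosomal carrier. Slc3a2 (NCBI gene 17254) encodes the CD98 heavy chain, which brings several light chains of the Slc7 family to the cell surface. It stood at 67.5, 70.5 and 74.2 FPKM in LKO and at 83.8, 83.8 and 79.1 FPKM in DKO, with each DKO library above every LKO library (log2 fold change 0.23, SE 0.05, adjusted p by edgeR 0.0018). One of its light chains, Slc7a8 (LAT2, NCBI gene 50934), rose beside it, from 41, 44.4 and 43.5 FPKM to 49.4, 55.1 and 53.4 FPKM (log2 fold change 0.30, SE 0.05, adjusted p by edgeR 0.000187). Slc43a2 (LAT4), which carries some large neutral amino acids without the heavy chain, stood at 64.4, 65.4 and 66.2 FPKM in LKO and at 75.1, 76.3 and 76.3 FPKM in DKO (log2 fold change 0.23, SE 0.04, adjusted p by edgeR 0.000288). These 3 genes had no overlap between groups, and their calls held in all 14 alternatives.

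The other light chains of CD98 among the genes taken did not pass. Slc7a7 (y+LAT1) did not pass, with all DKO libraries (46.7 to 48.3 FPKM) just below all LKO libraries (48.8 to 50.7 FPKM; adjusted p by edgeR 0.599). Slc7a5 (LAT1), the light chain usually linked to proliferating cells, was at 2.46, 2.61 and 3.94 FPKM in LKO and 2.52, 3.05 and 2.45 FPKM in DKO (adjusted p by edgeR 0.607), and Slc7a6 (y+LAT2) had an edgeR adjusted p of 0.526. Per length, the messages of Slc7a7 (48.6 FPKM over all libraries) and Slc7a8 (47.8 FPKM) were at like levels, and those of Slc7a5 (2.84 FPKM) and Slc7a6 (2.37 FPKM) far lower. Whether the light chains differed from one another in their change was not tested.

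The 3 amino acid carriers that were lower were Slc38a1, Slc7a1 and Slc1a5. Slc38a1 (SNAT1), a sodium-coupled glutamine carrier, was at 20.7, 19.5 and 19.7 FPKM in LKO and 17.5, 17.03 and 17.9 FPKM in DKO (log2 fold change −0.18, SE 0.05, adjusted p by edgeR 0.0115), without overlap. Slc7a1 (CAT1), an arginine carrier, was at 3.55, 4.09 and 4.59 FPKM in LKO and 2.64, 3.21 and 3.42 FPKM in DKO (log2 fold change −0.39, SE 0.10, adjusted p by edgeR 0.00785). Slc1a5 (ASCT2), a second glutamine carrier, had the largest fitted fall but overlapping groups, with 2.78, 3.63 and 3.05 FPKM in LKO and 1.97, 2.84 and 1.72 FPKM in DKO (log2 fold change −0.52, SE 0.17, adjusted p by edgeR 0.0424). Slc38a2 (SNAT2) did not pass, with 11.04, 13.05 and 12.4 FPKM in LKO and 10.8, 10.3 and 11.03 FPKM in DKO (adjusted p by edgeR 0.0995), but did without LKO replicate 1 (adjusted p by edgeR 0.013). Slc6a6, the taurine carrier and the most abundant of the group, overlapped between groups, with 172, 180 and 180 FPKM in LKO and 165, 173 and 174 FPKM in DKO (adjusted p by edgeR 0.554).

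Of 14 carriers known from the lysosomal membrane, all among the 152, 4 were higher and 1 lower (35.7% called, against 14.3% of all genes tested, a difference that was not tested), the median log2 fold change being 0.02. Besides Slc48a1, the nucleoside carrier Slc29a3 (ENT3, NCBI gene 71279) was higher, at 19.1, 20.7 and 22.9 FPKM in LKO and 26.5, 29.5 and 27.7 FPKM in DKO. Its groups did not overlap (log2 fold change 0.43, SE 0.06, 1.35-fold, adjusted p by edgeR 2.47e-05), and the call held in all 14 alternatives. Slc36a1 (PAT1), a proton-coupled amino acid carrier, was at 10.2, 10.6 and 11.2 FPKM in LKO and 13.2, 11.9 and 12.4 FPKM in DKO (log2 fold change 0.24, SE 0.06, adjusted p by edgeR 0.00846). Slc46a3 rose from 19.8 ± 1.29 to 22.5 ± 0.725 FPKM (adjusted p by edgeR 0.0389). The member that fell was Slc15a3 (PHT2, NCBI gene 65221), at 182, 182 and 187 FPKM in LKO and 156, 155 and 153 FPKM in DKO, without overlap (log2 fold change −0.24, SE 0.04, adjusted p by edgeR 0.000233). Its paralogue Slc15a4 (PHT1) did not pass, at 24.4 ± 0.513 and 22.8 ± 0.713 FPKM (adjusted p by edgeR 0.398). Nor did the amino acid sensor Slc38a9 (adjusted p by edgeR 0.991), the sialic acid carrier Slc17a5 (0.875) or the cationic amino acid carrier Slc66a1 (0.981).

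**Figure D3:**
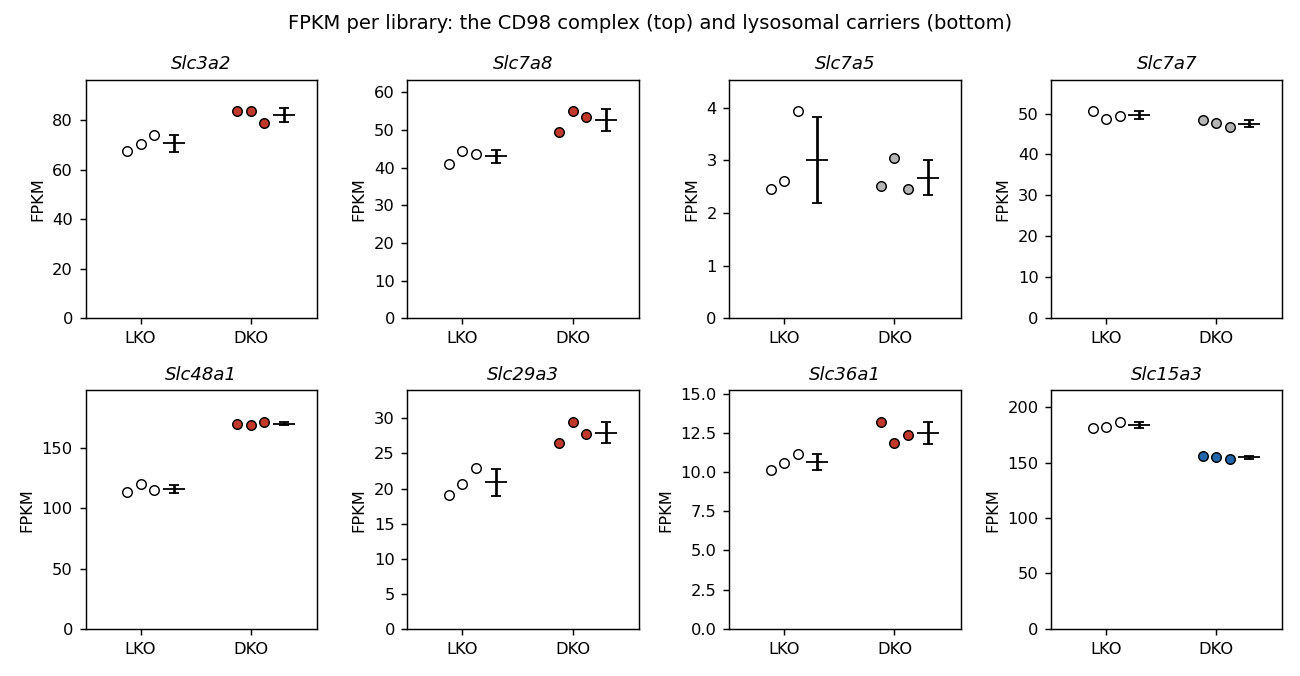
FPKM in each library for the CD98 heavy chain Slc3a2 with 3 of its light chains (top) and for 4 lysosomal carriers (bottom); open points are LKO, filled points DKO (red higher, blue lower, grey did not pass), and bars show mean and SD of 3 libraries. Slc3a2 and Slc7a8 are higher in DKO beside Slc7a5 and Slc7a7, which did not pass, and Slc15a3 is lower beside 3 lysosomal carriers that are higher.

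Reads of Slc36a1 are uncertain in part. Its expected counts were fractional in all 6 libraries, as were those of Slc36a1os, which is named as its opposite-strand neighbour, and the strand setting of the counting is not given in the sources used here. Slc36a1os did not pass, at 3.88 ± 0.347 FPKM (LKO) against 3.80 ± 0.557 (DKO) (adjusted p by edgeR 0.968). Fractional counts, which can arise where a read is divided among genes, were seen in at least 1 library for 37 of the 152 genes, among them Slc3a2, Slc43a2, Slc7a8, Slc7a1, Slc8a1, Slc39a1 and Slc39a8.

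Among carriers of peptides, nucleosides, vitamins and choline, 3 of 15 were higher and 1 lower. That is 26.7% called, against 14.3% of all genes tested, a difference that was not tested. Besides Slc29a3 and Slc46a3, the plasma membrane nucleoside carrier Slc29a1 (ENT1) was higher, at 44.9, 46.8 and 46.97 FPKM in LKO and 53.3, 50.9 and 54.8 FPKM in DKO. The groups did not overlap (log2 fold change 0.21, SE 0.05, adjusted p by edgeR 0.00733). Slc28a2, a sodium-coupled nucleoside carrier, did not pass, at 16.1 ± 0.413 and 14.9 ± 0.106 FPKM (adjusted p by edgeR 0.279). The folate carriers Slc19a1 and Slc46a1 (adjusted p by edgeR 0.932 and 0.807) and the vitamin C carrier Slc23a2 (0.624) did not pass either.

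Carriers of chloride, bicarbonate and protons changed in 6 of 17 cases (35.3%, against 14.3% of all genes tested). Slc12a5 (KCC2), a potassium-chloride cotransporter best known from neurons, had the largest change at a low level, with 2.17, 2.30 and 2.34 FPKM in LKO and 3.17, 3.01 and 3.31 FPKM in DKO (log2 fold change 0.49, SE 0.09, adjusted p by edgeR 0.000774). Its relative Slc12a7 (KCC4) stood at 24.6, 25.9 and 25.03 FPKM in LKO and at 27.9, 27.8 and 28.5 FPKM in DKO (log2 fold change 0.17, SE 0.05, adjusted p by edgeR 0.0194). Neither gene's groups overlapped. Slc12a9 rose from 20.3 ± 1.502 to 23.01 ± 1.13 FPKM (adjusted p by edgeR 0.0462). In the same cation-chloride family Slc12a4 (KCC1; 7.49 ± 0.485 and 6.54 ± 0.359 FPKM, adjusted p by edgeR 0.118) and the inward cotransporter Slc12a2 (NKCC1; adjusted p by edgeR 0.874) did not pass.

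Of the 3 bicarbonate carriers of the Slc4 family 2 were lower (66.7%, against 6.88% of all genes tested), a share that rests on few genes. Slc4a7 (NBCn1), which brings bicarbonate into the cell with sodium, was at 8.76, 8.23 and 7.78 FPKM in LKO and 6.04, 6.38 and 5.99 FPKM in DKO, with no overlap (log2 fold change −0.42, SE 0.06, adjusted p by edgeR 6.08e-05), and its call held in all 14 alternatives. The anion exchanger Slc4a3 (AE3) fell with overlapping groups, at 4.90, 6.07 and 5.62 FPKM in LKO and 4.20, 5.10 and 4.14 FPKM in DKO (log2 fold change −0.29, SE 0.10, adjusted p by edgeR 0.0449). The Slc4a3 call was lost in 10 of the 14 alternatives. None of the 5 sodium-proton exchangers of the Slc9 family passed. Slc9a9 (NHE9), an endosomal exchanger and the most abundant carrier of this group, averaged 97.6 ± 3.81 FPKM across LKO and 94.3 ± 0.819 across DKO (adjusted p by edgeR 0.638). The sodium-calcium exchanger Slc8a1 (NCX1) was higher, at 3.01, 2.87 and 2.69 FPKM in LKO and 3.79, 3.41 and 4.01 FPKM in DKO (log2 fold change 0.40, SE 0.07, adjusted p by edgeR 0.000215).

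Of the 34 mitochondrial carriers 2 were lower and none higher (5.88% called, against 14.3% of all genes tested). The difference between these shares was not tested. An unadjusted p under 0.05 by edgeR was reached by 6 of the 34, against 3054 of all 11809 genes tested. Both lower genes were ADP/ATP carriers, which exchange ATP made in the matrix for cytosolic ADP. Slc25a5 (ANT2, NCBI gene 11740) was at 314, 279 and 292 FPKM in LKO and 252, 247 and 244 FPKM in DKO (log2 fold change −0.24, SE 0.05, adjusted p by edgeR 0.000753), and Slc25a4 (ANT1) at 123, 119 and 120 FPKM and 110, 105 and 106 FPKM (log2 fold change −0.16, SE 0.05, adjusted p by edgeR 0.0308). Neither gene's groups overlapped. The group's summed level was 1176 to 1195 FPKM in LKO and 1103 to 1132 FPKM in DKO, and most of that difference was Slc25a5 and Slc25a4. The median log2 fold change of the group was −0.02, with 14 fitted changes positive and 20 negative. Slc25a3, the phosphate carrier, did not pass with 167, 167 and 155 FPKM in LKO and 156, 158 and 145 FPKM in DKO (adjusted p by edgeR 0.339), nor did the citrate carrier Slc25a1 at 36.8, 42.98 and 38.5 FPKM in LKO and 42.5, 37.4 and 39.4 FPKM in DKO (adjusted p by edgeR 0.887). The glutathione carrier Slc25a39 was at 97.4 ± 9.41 and 106 ± 2.35 FPKM (adjusted p by edgeR 0.162), the dicarboxylate carrier Slc25a10 at 88.3 ± 4.37 and 82.9 ± 1.79 FPKM (0.278) and the NAD carrier Slc25a51 at 17.8 ± 0.632 and 19.7 ± 0.900 FPKM (0.0567). In this group 24 of 34 genes differed by less than 1.1-fold.

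**Figure D4:**
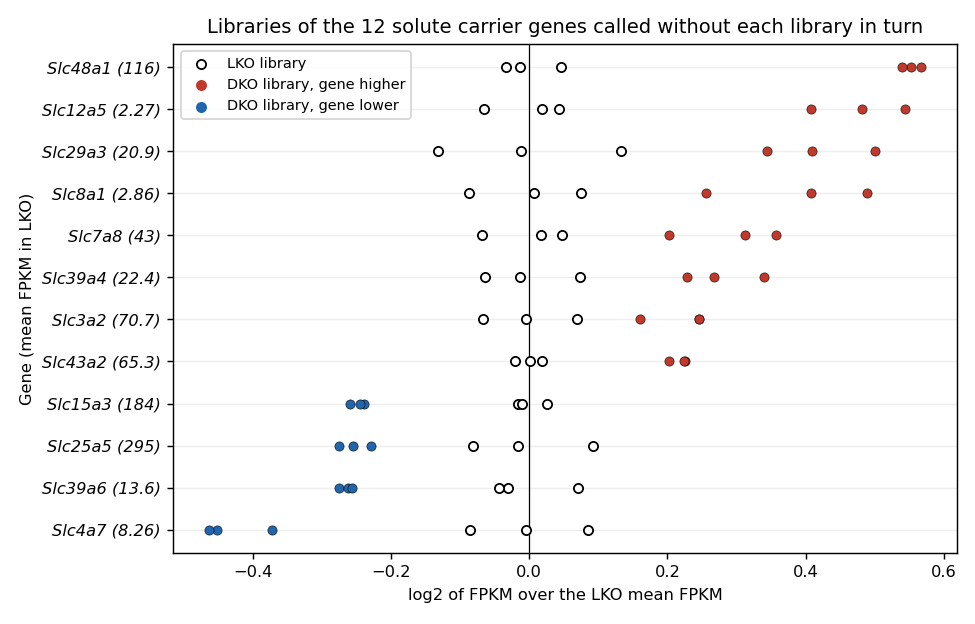
Each library of the 12 called solute carrier genes that kept their call without each single library, as log2 of its FPKM over the LKO mean FPKM of that gene (mean in brackets); open points are LKO, red and blue points DKO libraries of genes higher and lower. Points of Slc48a1 and Slc15a3 form tight separate groups, and in none of the 12 genes do the LKO and DKO points overlap. The genes were chosen by their calls, so this separation is not a separate result. Over all genes tested 29.6% had no overlap.

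The remaining groups had no member that passed, apart from the PQ-loop protein Slc66a2, which stood at 10.5, 9.88 and 10.9 FPKM in LKO and 12.3, 11.96 and 12.7 FPKM in DKO (log2 fold change 0.24, SE 0.08, adjusted p by edgeR 0.0402). None of the 12 sugar and polyol carriers passed. The edgeR unadjusted p was under 0.05 for 2 of them, Slc37a2 and Slc2a9, against 3054 of all 11809 genes tested. Slc37a2, a sugar phosphate carrier abundant in macrophages, was at 43.4, 41.9 and 42.7 FPKM in LKO and 44.8, 46.9 and 44.15 FPKM in DKO (adjusted p by edgeR 0.18), and the urate carrier Slc2a9 at 7.28 ± 0.356 and 8.32 ± 0.731 FPKM (adjusted p by edgeR 0.0709). None of the 11 monocarboxylate and organic ion carriers passed, with Slc16a6 at 30.8 ± 0.923 and 30.5 ± 1.01 FPKM and the aromatic amino acid carrier Slc16a10 at 28.5 ± 0.535 and 28.6 ± 0.613 FPKM. Slc16a1, a lactate carrier, lay under the level minimum, at 0.82, 0.66 and 0.60 FPKM in LKO and 0.63, 0.61 and 0.72 FPKM in DKO. The phosphate carrier Slc20a1 was at 6.02, 6.54 and 5.47 FPKM in LKO and 5.78, 5.67 and 5.53 FPKM in DKO (adjusted p by edgeR 0.607). The 4 phosphate and vesicular anion carriers, the 5 Slc35a genes, the 3 fatty acid and acetyl-CoA carriers and the 4 genes only named after a carrier had no call.

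Of the 26 calls, 10 held in all 14 alternative settings: Slc48a1, Slc29a3, Slc7a8, Slc39a4, Slc3a2 and Slc43a2 higher, and Slc4a7, Slc39a6, Slc25a5 and Slc15a3 lower. All 26 kept their sign throughout. Without a single library the calls of Slc29a1 (without DKO replicate 3, adjusted p by edgeR 0.0577), Slc36a1 (without DKO replicate 1, 0.0631) and Slc38a1 (without DKO replicate 2, 0.0713) were lost. Slc12a7 lost its call without LKO replicate 3 or DKO replicate 3 (adjusted p by edgeR 0.0604 to 0.0972), and Slc7a1 without LKO replicate 3 or DKO replicate 1 (0.0636 to 0.0701). Slc39a8 lost it without LKO replicate 1 or 2 or DKO replicate 2 (adjusted p by edgeR 0.0938 to 0.249). Slc1a5 and Slc4a3 lost theirs without LKO replicate 2 or 3 or DKO replicate 1 or 3 (adjusted p by edgeR 0.0735 to 0.209 and 0.107 to 0.211). Slc12a9 did so without LKO replicate 1 or 2 or DKO replicate 1 or 3 (0.0684 to 0.223). Slc25a4 kept its call only without DKO replicate 1 (otherwise 0.0519 to 0.134), Slc46a3 and Slc39a1 only without LKO replicate 2 (otherwise 0.0659 to 0.156 and 0.0747 to 0.0914) and Slc66a2 only without LKO replicate 3 (otherwise 0.0635 to 0.166). Slc12a5 and Slc8a1 kept theirs without each library. In limma on log2 FPKM, Slc12a5 lost its call in 1 of 4 fits (adjusted p 0.0501) and Slc8a1 in all 4 (adjusted p 0.0502 to 0.11). Of the 26 calls 11 were lost in all 4 limma fits, those of Slc36a1 (adjusted p 0.0559 to 0.101), Slc12a7 (0.0555 to 0.0595), Slc7a1 (0.0983 to 0.207), Slc12a9, Slc1a5, Slc39a1, Slc39a8, Slc46a3 and Slc4a3 among them, and Slc38a1 was lost in 1 (0.0534). DESeq2 lost 9 of the 26, including Slc66a2 (adjusted p 0.264), Slc4a3 (0.175), Slc39a8 (0.167), Slc46a3 (0.161), Slc1a5 (0.149), Slc12a9 (0.133), Slc39a1 (0.0749) and Slc25a4 (0.0652).

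Lists of genes that work with solute carriers or beside them had called shares of 19.4% to 22.7%, apart from the amino acid response list with none, against 14.3% of all genes tested. Of 31 tested carriers that have no Slc symbol, 4 were higher and 2 lower, the median log2 fold change being 0.04. The organic anion carrier Slco2b1 stood at 3.17, 3.55 and 2.94 FPKM in LKO and at 5.31, 4.93 and 7.78 FPKM in DKO (log2 fold change 0.91, SE 0.13, adjusted p by edgeR 4.72e-05), and its fitted rise was larger than that of any of the 152 genes. Flvcr2, a relative of the haem exporter Flvcr1, was low and fell, with 0.90, 1.09 and 0.91 FPKM in LKO and 0.39, 0.26 and 0.29 FPKM in DKO (log2 fold change −1.59, SE 0.26, adjusted p by edgeR 0.000169). Of 22 partner and gradient genes 2 were higher and 3 lower. Basigin (Bsg) and embigin (Emb), both escorts of monocarboxylate carriers, went in opposite directions, Bsg from 111 ± 3.00 to 123 ± 3.46 FPKM (adjusted p by edgeR 0.0362) and Emb from 40.2 ± 2.36 to 31.8 ± 1.01 FPKM (adjusted p by edgeR 0.000251). The proton channel Hvcn1 fell from 22.1 ± 1.53 to 17.4 ± 1.095 FPKM (adjusted p by edgeR 0.0012). Of 24 tested ATP-driven ABC transporters 4 were higher and 1 lower, Abcc3, an exporter of organic anions, rising from 29.0 ± 1.31 to 36.8 ± 1.72 FPKM (adjusted p by edgeR 3.47e-05) and Abcg3 falling from 10.8 ± 0.652 to 8.43 ± 0.333 FPKM (adjusted p by edgeR 0.0018). None of 18 tested genes of the amino acid response and lysosomal amino acid sensing passed, Atf4 (adjusted p by edgeR 0.288), Tfeb (0.628) and Tfe3 (0.472) among them.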

How the data were processed

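RNA sequencing libraries of 3 LKO and 3 DKO macrophage samples were compared, grouped by their titles. Expected counts (the authors' estimated counts per gene) and FPKM values scaled by the authors to length and depth were used, per the file headers. The submitters' processing notes name Bowtie 0.12.2 and mm8, and the counting tool is not given in the sources used here. Genes under 0.01 FPKM are not listed and were taken as 0. Of 16871 gene numbers 16832 matched a symbol in a RefSeq table (GRCm38.p6).

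Expected counts were rounded and tested by quasi-likelihood in edgeR 4.0.16 (R 4.3.3) after filterByExpr and TMM scaling, unpaired. Calls took p-values adjusted by Benjamini and Hochberg across the 11809 genes kept, at 0.05. SE is the log2 fold change divided by the root of F. The biological coefficient of variation was 0.0413. Chi-square per degree of freedom was 1.68 to 3.71 between libraries of a group and 8.30 to 14.9 across groups. Each library counted as 1 sample, and these values cannot show whether the libraries came from separate animals. The scripts were tested on simulated data. Alternatives used DESeq2 1.42.0 and limma 3.58.1 on log2(FPKM + pseudocount), which understates changes of low genes, and left out each library.

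Members, lists, groups and the naming rule were chosen with earlier results of these data known. The rule names the 8 largest rises and falls that passed, the 5 highest levels, up to 2 per group and direction, and 13 set genes; others named were chosen after their values were seen, as were the motifs. Carriers listed under older names that were already members were dropped from the partner lists. Some genes are not reported here by name, though they enter the counts.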

Additional observations from a re-analysis of the deposited data

How the results depend on the processing

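The 26 called genes had the same direction in all 14 alternatives. DESeq2 called 6 solute carrier genes lower, against 10. Limma called 9 higher and 6 lower with pseudocounts of 1, 0.1 and 5, and 7 higher and 5 lower without a filter. Over all tested there were 1689 called genes, 1119 in limma with a pseudocount of 0.1 and 807 without a filter. The median log2 fold change of solute carrier genes was 0.0095 with a pseudocount of 5 and 0.039 for those of at least 5 FPKM, against 0.024. Leaving out 1 library in turn gave 9 to 15 higher, 6 to 9 lower, medians of 0.017 to 0.035 and 1175 to 1481 called genes over all tested. With the 8 genes left out by name put back, an alternative chosen after seeing the data, 18 were higher and 13 lower. For all of these counts the cause of the difference was not tested.

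No pairing of the libraries by the replicate numbers that the groups share was seen. Deviations of libraries with equal numbers correlated at −0.06 to 0.02, and those with unequal numbers at −0.03 to 0.06. With 3 libraries per group, such values cannot show that the numbers mark no pairs. With the replicate number as a block 11 solute carrier genes were higher and 9 lower, with 1553 called genes over all tested. Genes of low level had few calls, and a change that did not pass there is not shown to be absent.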
